A study of Mus musculus with 4 samples.

Results

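Imprinted genes are expressed mainly from the maternal or the paternal chromosome, because DNA methylation set in the germ line marks the parental copies differently. Several of them set growth through insulin-like growth factor (IGF) signaling, with maternally expressed genes often restraining growth. H19, Igf2r, Grb10 and Meg3 are expressed mainly from the maternal copy in most mouse tissues, and Plagl1 and Impact from the paternal copy. In mouse blood-forming stem cells, imprinting at H19 and at the locus of Meg3 is known to bear on quiescence and on IGF and mTOR signaling. Of these 6 listed genes, 5 had a row in the gene table of 15607 genes, and they were taken by gene name. Meg3 had no row and is not analysed here.

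The libraries came from lineage-negative bone marrow cells, a sorted fraction depleted of mature blood cells, of 4 mice. Mice 5 and 6 carried a conditional knockout of Mel18 in the hematopoietic system, and mice 1 and 3 were wild type. Mel18 is a Polycomb group protein encoded by Pcgf2. The study asked whether its loss alters transcription in these cells. The Cre driver, the deleted exons, and the age and strain of the mice are not given in the labels.

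Total counts were 46240864 and 44642002 in knockout mice 5 and 6, against 35599564 and 37197363 in wild type mice 1 and 3. Pcgf2 had 303 and 321 counts in knockout mice 5 and 6, against 210 and 158 in wild type mice 1 and 3, so the libraries labelled knockout held no less of it, and all directions are between the libraries as labelled. A count over the whole gene does not check a deletion of some exons. The 15 stem and progenitor markers were all detected in every library. Mpo, a granule enzyme gene of myeloid precursors, made up 89.6% to 91.8% of their summed level, and the other 14 summed to 1274 and 1196 CPM (a level relative to the TMM-scaled total count of the library) in knockout mice 5 and 6, against 1379 and 1139 CPM in wild type mice 1 and 3. Markers of other cells were present too. The sum of 16 stroma and osteoblast markers was 806 and 763 CPM in knockout mice, against 156 and 281 CPM in wild type mice 1 and 3. Its largest parts in knockout mice 5 and 6 were the collagen genes Col1a1 (352 and 326 CPM) and Col1a2 (249 and 242 CPM). In wild type mouse 1 the largest part was Runx2, at 82.1 CPM. These genes were named outside the rule, for their share of the sum. The sum of 12 neutrophil markers was 14315 and 14514 CPM in knockout mice, against 20252 and 28722 CPM in wild type mice 1 and 3. Of these markers, 2 passed the quasi-likelihood test as lower (Retnlg and Cxcr2, adjusted p = 0.0449 each), a test that called 0.135% of all genes. The sum of 8 megakaryocyte markers was 389 and 360.5 CPM in knockout mice, against 284 and 262 CPM in wild type mice. Of the 8, 7 were higher in both knockout mice, an order that 21.4% of all genes showed. The quasi-likelihood test called 2 of them higher (Ppbp, adjusted p = 0.016, and Pf4, adjusted p = 0.0477), beside 0.032% of all genes. For endothelium, 8 of 11 markers were higher in both knockout mice and 0 were lower in both (21.4% and 20.9% of all genes). Of the 11, 0 were called (0.135% of all genes) and 3 had an unadjusted p under 0.05, beside 8.89% of all genes. The 9 B cell markers summed to 1324 and 1065 CPM in knockout mice 5 and 6. In wild type mice 1 and 3 they summed to 2392 and 1169 CPM. Ighm, named outside the rule for its share, was at 2190 CPM in wild type mouse 1. For 10 T and NK markers the sums were 365 and 357 CPM, against 448 and 366 CPM. For 11 erythroid markers they were 2515 and 1955 CPM, against 1883 and 2078 CPM, with mice in the same order. In such bulk samples, fewer cells of a type and less RNA per cell cannot be told apart.

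None of the 5 imprinted genes passed the edgeR quasi-likelihood test after adjustment over all genes, a test that called 21 genes in the whole table (0.135%), 5 of them higher in knockout (0.032%). H19 and Grb10 had the larger differences, both with higher values in knockout. They were the 2 of 5 genes whose knockout libraries both lay above both wild type libraries, an order that 21.4% of all genes showed, and 0 of the 5 showed the opposite order, found in 20.9% of all genes. The same 2 genes had an unadjusted p under 0.05, as did 8.89% of all genes, or 3.33% counting those higher in knockout. Igf2r, Plagl1 and Impact overlapped between the groups. The median log2 fold change of the 5 was 0.12, beside -0.0053 for all genes. Among other tools, the DESeq2 Wald test called 0 of the 3 genes it gave an adjusted p, and H19 and Plagl1 got none. It called 1.4% of all genes, a share whose base includes the genes without an adjusted p. With limma voom 0 were called (0% of all genes), and the edgeR likelihood ratio test called 1, H19 (1.13% of all genes). Among genes reaching 1 CPM in 2 libraries, the quasi-likelihood test called 0 of the 3 genes left (0.0783% of those tested). With 1 library left out, it called 3 of the 5 without wild type mouse 3 (H19, Grb10 and Igf2r, where 5.41% of those tested were called). The other fits of this kind called 0 of the 5, whether the library left out was that of knockout mouse 5 (0.0322%), of knockout mouse 6 (0.116%) or of wild type mouse 1 (1.85%).

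**Figure D1:**
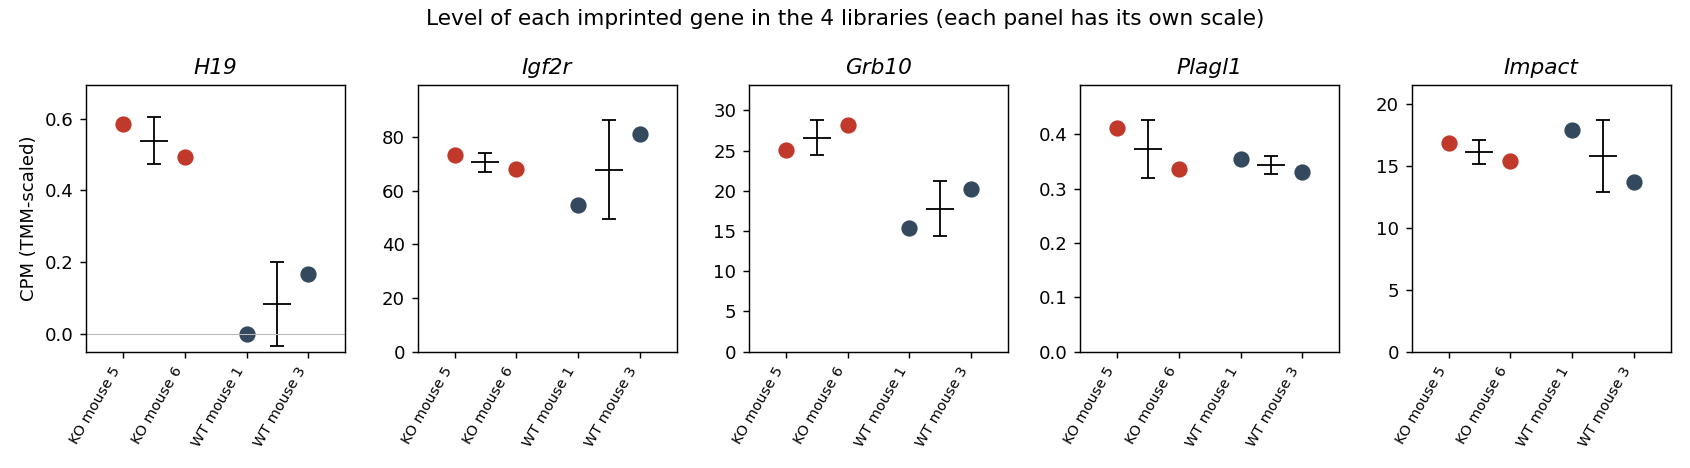
TMM-scaled CPM (y axis, its own scale in each panel) of H19, Igf2r, Grb10, Plagl1 and Impact in knockout mice 5 and 6 (red) and wild type mice 1 and 3 (dark blue), with the group mean and SD (black, n = 2). The knockout points of H19 and Grb10 lie above both wild type points, and those of the other genes do not.

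H19 is a long noncoding RNA transcribed from the maternal chromosome, in a domain where the growth factor gene Igf2 is transcribed from the paternal one. The gene (ENSMUSG00000000031.16) lies on the minus strand of mm10 chromosome 7, 142575529 to 142578143, and its 2460 exonic bases form 3 blocks. Its first exon block, counted from the 5′ end, also holds the hairpin of a microRNA, miR-675, which in mouse placenta is known to limit growth and to target the IGF receptor Igf1r. The hairpin spans chr7:142577064-142577147 and begins 996 bases from the 5′ end of H19. Its mature arms are shown because they are the processed small RNA products of this transcript. The seed (bases 2 to 8) is in capitals, and the sequences are RefSeq's on GRCm38.p6, minus strand.
mmu-miR-675-5p: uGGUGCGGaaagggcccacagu
mmu-miR-675-3p: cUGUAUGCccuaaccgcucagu
The arms carry different seeds. The level of the microRNA itself is not analysed here, since the table counts long RNA.

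H19 had 27 and 22 counts in knockout mice 5 and 6, against 0 and 6 counts in wild type mice 1 and 3. That gives 0.584 and 0.493 CPM in knockout mice 5 and 6, against 0 and 0.166 CPM in wild type mice 1 and 3. Both knockout libraries were higher, and the wild type counts of 0 and 6 were both low. As CPM on unscaled totals, the exact 95% interval for counting error was 0.385 to 0.850 in knockout mouse 5 and 0.309 to 0.746 in knockout mouse 6, against 0.0592 to 0.351 in wild type mouse 3. For the count of 0 in wild type mouse 1 the exact interval was 0 to 0.104. The limit of 3 counts, used below, is 0.0843 CPM on that scale. The intervals of knockout mouse 6 and wild type mouse 3 overlap, and so do those of wild type mice 1 and 3.

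The mean level of H19 was 0.538 ± 0.065 CPM in knockout and 0.083 ± 0.117 CPM in wild type (SD, n = 2 each), with a log2 fold change of 2.66 ± 0.81 (SE; 95% interval 0.75 to 4.58) and a quasi-likelihood adjusted p of 0.415 (unadjusted p = 0.0133). The difference therefore did not pass, with both knockout mice above both wild type mice. In the authors' deposited table H19 has an adjusted p of 0.0046 at the same log2 fold change, and a share of 1.13% of all genes is under 0.05 there. The edgeR likelihood ratio test on the same counts gave 0.0046 as its adjusted p and called 1.13% of all genes. For Grb10 that test and the authors' table each give an adjusted p of 0.170. The authors' values are thus not a separate source beside that test. Without wild type mouse 3, H19 passed the quasi-likelihood test (adjusted p = 0.0247, where 5.41% of those tested were called). Its fitted fold there stands against a library at 0. The knockout mean was 6.57 times the level that 3 counts would give in wild type mouse 1, a ratio that leaves out counting error in knockout. Against wild type mouse 3 alone the log2 fold change was 1.68 (quasi-likelihood adjusted p = 0.297), in a fit that called 1.85% of all genes.

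Most stroma and osteoblast markers were, like H19, higher in both knockout mice. In this list, the knockout values of 12 of 16 measured markers both exceeded the wild type values, and those of 1 were both below them (21.4% and 20.9% of all genes). Their median log2 fold change was 1.47, and 0 of 16 passed the quasi-likelihood test (0.135% of all genes). Of the 16, 9 had an unadjusted p under 0.05, as did 8.89% of all genes. The authors' deposited table calls 5 of the 16, beside 1.13% of all genes. Col1a1, a main collagen chain of bone named outside the rule for its role, was at 352 and 326 CPM in knockout mice 5 and 6, against 4.73 and 80.1 CPM in wild type mice 1 and 3. Lum, a collagen-binding proteoglycan of connective tissue, had 42 and 26 counts in knockout mice 5 and 6, against 0 and 3 counts in wild type mice 1 and 3. Lum was the only marker of the list at 0 in any library, and the order of its counts over the libraries was that of H19. Bglap, which encodes the bone protein osteocalcin, had 113 and 82 counts in knockout mice 5 and 6, against 2 and 16 counts in wild type mice 1 and 3. Spp1, Runx2 and Pdgfrb, named after their values were seen, had log2 fold changes below 0, at -0.18 for Spp1 (adjusted p = 0.712), -0.093 for Runx2 (adjusted p = 0.789) and -0.23 for Pdgfrb (adjusted p = 0.807). Of the megakaryocyte markers given above, 7 of 8 were also higher in both knockout mice (21.4% of all genes). The part of such cells in the results for H19 and Grb10 was not tested.

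The 5 genes whose pattern over the 4 libraries lay nearest to that of H19 were Acta1, Bglap2, Pcsk6, Cpz and Cdh2, by the Euclidean distance of log2 CPM centred on each gene's mean (0.29, 0.43, 0.47, 0.48 and 0.56). With 4 libraries many genes share such a pattern, and this is a description. Acta1, the skeletal muscle actin gene, had 136 and 124 counts in knockout mice 5 and 6, against 6 and 29 counts in wild type mice 1 and 3. Bglap2 is a second osteocalcin gene, closely similar to Bglap, so reads may be shared between them. It had 39 and 23 counts in knockout mice 5 and 6, against 1 and 8 counts in wild type mice 1 and 3. Cdh2, which encodes N-cadherin, had 15 and 18 counts in knockout mice 5 and 6, against 0 and 5 counts in wild type mice 1 and 3. Each of the 5 was lowest in wild type mouse 1, next lowest in wild type mouse 3 and higher in both knockout mice. The other imprinted genes spanned less than 1 log2 unit over the libraries, and no likeness was computed for them.

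**Figure D2:**
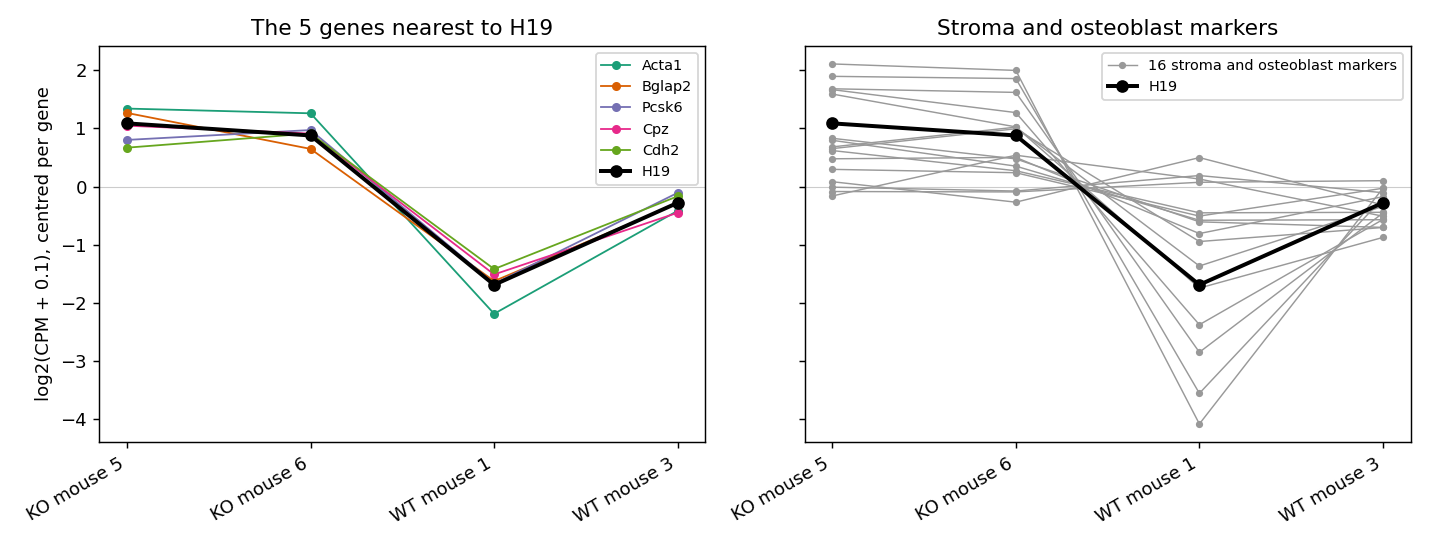
Level of H19 (black) in the 4 libraries, with the 5 genes nearest to it in pattern (left) and the 16 stroma and osteoblast markers (right, gray); the y axis is log2(CPM + 0.1) centred on each gene's mean. H19 and its nearest genes are lowest in wild type mouse 1 and higher in knockout mice 5 and 6, and 12 of the 16 markers have both knockout points above both wild type points.

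Genes near H19 were examined next. Within 500 kb on either side, 13 other genes had a row and 0 were called by the quasi-likelihood test (0.135% of all genes). An unadjusted p under 0.05 was found for 1 of the 13, beside 8.89% of all genes. The log2 fold changes of the 13 ran from -0.41 to 0.43 with a median of 0.0095. Of the 13, 0 had both knockout libraries above both wild type libraries and 2 had both below (21.4% and 20.9% of all genes). Igf2, the reciprocal partner of H19, had no row and is not analysed here. The nearest protein-coding neighbour, named for its place, was Mrpl23, a mitochondrial ribosomal protein gene 34.8 kb away (log2 fold change 0.13, adjusted p = 0.897). Lsp1, which encodes a leukocyte actin-binding protein 80.7 kb away, was the neighbour with an unadjusted p under 0.05 (log2 fold change -0.32, adjusted p = 0.476) and was named after its value was seen.

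Grb10 encodes an adaptor that binds activated insulin and IGF receptors and damps their signaling, and the protein is also a substrate of mTORC1. The gene (ENSMUSG00000020176.17) lies on the minus strand of chromosome 11, 11930508 to 12038683, with 9089 exonic bases in 22 blocks. Grb10 is known to use different promoters for its maternal transcripts, made in most tissues, and its paternal transcripts, made in neurons. RefSeq gives 2 starts, and gene counts cannot tell their transcripts apart. The window from 250 bases before to 50 bases after each start is shown because Grb10 had the smallest p of the 5 genes and its starts differ in CpG, the dinucleotide that carries imprinted methylation. CpG is in capitals, on the minus strand of GRCm38.p6.
Grb10 start at chr11:12037371-12037670: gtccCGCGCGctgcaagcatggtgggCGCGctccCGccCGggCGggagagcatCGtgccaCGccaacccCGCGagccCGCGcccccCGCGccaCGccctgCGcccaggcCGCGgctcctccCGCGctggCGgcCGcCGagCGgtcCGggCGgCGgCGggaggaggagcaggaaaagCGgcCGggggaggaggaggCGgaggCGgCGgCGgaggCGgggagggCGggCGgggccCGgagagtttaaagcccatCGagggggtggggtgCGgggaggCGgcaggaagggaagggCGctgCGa
Grb10 start at chr11:12027922-12028221: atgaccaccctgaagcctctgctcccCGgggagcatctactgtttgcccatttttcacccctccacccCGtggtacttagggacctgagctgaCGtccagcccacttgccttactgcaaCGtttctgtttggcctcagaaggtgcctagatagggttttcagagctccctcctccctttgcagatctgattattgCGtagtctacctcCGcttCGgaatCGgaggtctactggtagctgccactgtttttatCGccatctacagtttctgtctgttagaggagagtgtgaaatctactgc
The first window holds 45 CpG, a number reached by 1.93% of the 32851 promoter windows in the RefSeq table, and the second holds 9, reached by 45.8%. For comparison, the windows of Igf2r and Plagl1 hold 34 and 26 CpG, reached by 7.73% and 16.9% of windows. The hexamer TGCCGC, recognised when methylated by the imprint-keeping protein ZFP57, was searched on both strands. It occurred once each in the first Grb10 window and in the Plagl1 window, and 11.6% of all windows hold it. Methylation was not measured in these libraries, and whether either Grb10 window lies in the region of imprinted methylation was not examined.

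Grb10 had 1158 and 1259 counts in knockout mice 5 and 6, against 562 and 731 counts in wild type mice 1 and 3. On the CPM scale it was at 25.1 and 28.2 in knockout mice 5 and 6, against 15.4 and 20.2 in wild type mice 1 and 3. The lower knockout library lay above the higher wild type library. The exact 95% intervals for counting error of these libraries did not overlap. On unscaled totals the interval began at 23.6 CPM in knockout mouse 5 and ended at 21.1 CPM in wild type mouse 3. The mean was 26.6 ± 2.21 CPM in knockout and 17.8 ± 3.41 CPM in wild type (SD, n = 2 each), with a log2 fold change of 0.58 ± 0.15 (SE; 95% interval 0.23 to 0.93). It did not pass the quasi-likelihood test (adjusted p = 0.302, unadjusted p = 0.0055), and the authors' deposited table gives it an adjusted p of 0.170. Without wild type mouse 3, Grb10 had a log2 fold change of 0.78 and passed (adjusted p = 0.0154), and without wild type mouse 1 it had 0.40 and did not (adjusted p = 0.197). Wild type mouse 1, the lower of the wild type libraries for Grb10, was also the lowest in summed stroma and osteoblast markers. It was the highest in summed B cell markers and in summed T and NK markers. Between the knockout mice the order differed, with Grb10 higher in mouse 6. The stroma and osteoblast sum was higher in mouse 5 (806 CPM, against 763 CPM in mouse 6). The part of such cells in the level of Grb10 was not tested.

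Around Grb10, 5 other genes had a row within 500 kb. Their log2 fold changes ran from -0.30 to 0.15 and 0 were called (0.135% of all genes). An unadjusted p under 0.05 was found for 0 of the 5 (8.89% of all genes). Ddc, the nearest, encodes the decarboxylase that makes dopamine and serotonin and is imprinted in mouse heart. It had 39 and 42 counts in knockout mice 5 and 6, against 37 and 43 counts in wild type mice 1 and 3 (log2 fold change -0.30, adjusted p = 0.748). The blood transcription factor gene Ikzf1, 157.6 kb away and named for its role, was at 504 and 476 CPM in knockout mice 5 and 6, against 461 and 498 CPM in wild type mice 1 and 3 (adjusted p = 0.935).

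Igf2r encodes the cation-independent mannose 6-phosphate receptor, which carries lysosomal enzymes to lysosomes and clears the growth factor IGF2 from the cell surface. The gene (ENSMUSG00000023830.14) lies on the minus strand of chromosome 17, 12682406 to 12769664, with 9308 exonic bases in 49 blocks. It had 3375 and 3032 counts in knockout mice 5 and 6, against 1999 and 2931 counts in wild type mice 1 and 3. The levels were 73.0 and 67.9 CPM in knockout mice 5 and 6, against 54.6 and 80.9 CPM in wild type mice 1 and 3. The wild type mice were the lowest and the highest of the 4, with the knockout mice between them.

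The mean level of Igf2r was 70.5 ± 3.64 CPM in knockout and 67.8 ± 18.6 CPM in wild type (SD, n = 2 each). Its log2 fold change was 0.056 ± 0.19 (SE; 95% interval -0.43 to 0.55; quasi-likelihood adjusted p = 0.940). The direction turned with the wild type mouse used. Without wild type mouse 3 the log2 fold change was 0.36 and passed (adjusted p = 0.0401), and without wild type mouse 1 it was -0.20 (adjusted p = 0.366). Summed neutrophil markers, and those of monocytes and macrophages (1637 and 1715 CPM in knockout mice 5 and 6, against 1734 and 2053 CPM in wild type mice 1 and 3), were also highest in wild type mouse 3. In wild type mouse 1, where Igf2r was lowest, both sums lay above those of both knockout mice. The part of these cells in the level of Igf2r was not tested.

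Airn is the antisense RNA that begins inside Igf2r on the paternal chromosome and represses the paternal Igf2r copy. It had 13 and 25 counts in knockout mice 5 and 6, against 15 and 6 counts in wild type mice 1 and 3, so the groups overlapped (log2 fold change 0.54, 95% interval -0.83 to 1.90, adjusted p = 0.781). The counted exons of Airn share 0 bases with those of Igf2r. Because the chemistry does not mark strand, reads from unspliced Igf2r inside Airn exons cannot be told apart from Airn. Slc22a3, an organic cation transporter gene of the same domain, imprinted in placenta, was at 28.8 and 26.6 CPM in knockout mice 5 and 6, against 32.6 and 25.9 CPM in wild type mice 1 and 3 (adjusted p = 0.853). Of the 12 other genes with a row within 500 kb of Igf2r, 0 were called (0.135% of all genes). An unadjusted p under 0.05 was found for 0 of the 12 (8.89% of all genes).

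Plagl1, also known as Zac1, encodes a zinc finger transcription factor that restrains cell division and regulates other imprinted genes in mouse. The gene (ENSMUSG00000019817.18) lies on the plus strand of chromosome 10, 13060504 to 13131694, with 7819 exonic bases in 13 blocks. It was near the bottom of the table, with 19 and 15 counts in knockout mice 5 and 6, against 13 and 12 counts in wild type mice 1 and 3. These are 0.411 and 0.336 CPM in knockout mice 5 and 6, against 0.355 and 0.331 CPM in wild type mice 1 and 3, so the groups overlapped. The mean was 0.374 ± 0.053 CPM in knockout and 0.343 ± 0.017 CPM in wild type (SD, n = 2 each). The log2 fold change of 0.12 ± 0.41 (SE) had a 95% interval of -0.84 to 1.09 (quasi-likelihood adjusted p = 0.938).

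The relatives of Plagl1 had higher levels than it. Plagl2 was at 92.2 and 93.5 CPM in knockout mice 5 and 6, against 72.0 and 89.7 CPM in wild type mice 1 and 3 (log2 fold change 0.20, adjusted p = 0.618). Plag1 was at 1.77 and 1.72 CPM in knockout mice 5 and 6, against 1.31 and 1.10 CPM in wild type mice 1 and 3 (log2 fold change 0.53, adjusted p = 0.589). Both had knockout above wild type in every library, and neither passed.

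Impact encodes a protein that binds GCN1 and so restrains the kinase GCN2, which phosphorylates the initiation factor eIF2 when amino acids are short. The gene (ENSMUSG00000024423.6) lies on the plus strand of chromosome 18, 12955852 to 12992950, with 5129 exonic bases in 16 blocks. It had 779 and 690 counts in knockout mice 5 and 6, against 655 and 498 counts in wild type mice 1 and 3. The levels were 16.9 and 15.5 CPM in knockout mice 5 and 6, against 17.9 and 13.8 CPM in wild type mice 1 and 3, so the knockout mice again lay between the wild type mice. The mean was 16.2 ± 1.00 CPM in knockout and 15.8 ± 2.94 CPM in wild type (SD, n = 2 each), with a log2 fold change of 0.029 ± 0.15 (SE; 95% interval -0.33 to 0.39; quasi-likelihood adjusted p = 0.961). The sign turned in 2 of the 4 fits with a library left out, and no fit called it.

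**Figure D3:**
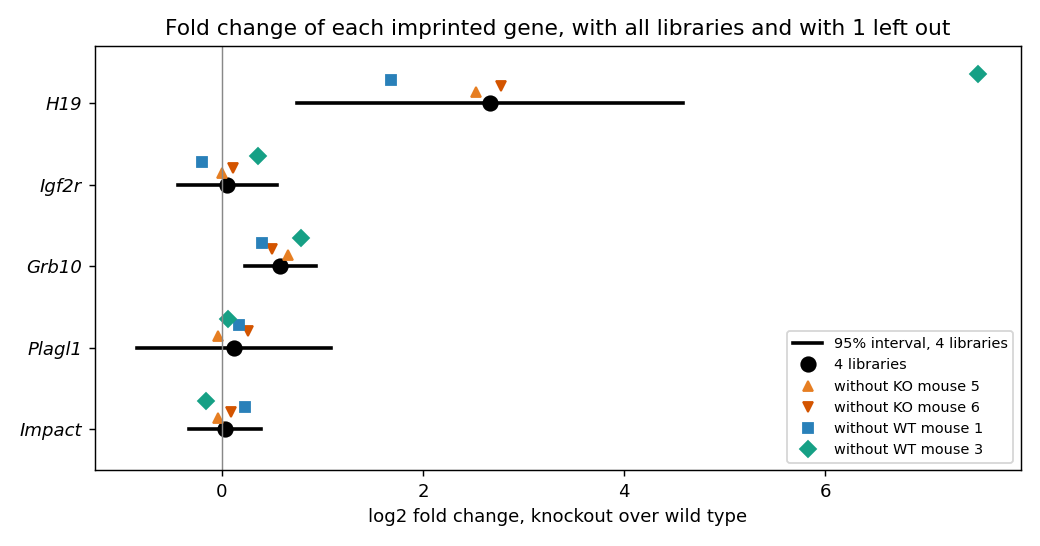
Log2 fold change of knockout over wild type (x axis) of H19, Igf2r, Grb10, Plagl1 and Impact, with 4 libraries (black point and 95% interval) and with 1 library left out (colored points). Grb10 and H19 stay above 0 in every fit, Igf2r, Plagl1 and Impact lie on both sides of 0, and the point of H19 without wild type mouse 3 is a fit against a library at 0.

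Levels of the 5 genes were compared per length of transcript. Igf2r was the highest in every library, at 7.85 and 7.29 RPKM (CPM divided by the exonic length in kilobases) in knockout mice 5 and 6, against 5.87 and 8.69 RPKM in wild type mice 1 and 3. Impact was at 3.15 ± 0.19 RPKM in knockout and 3.09 ± 0.57 RPKM in wild type (SD, n = 2 each). Grb10 was at 2.93 ± 0.24 RPKM in knockout and 1.96 ± 0.38 RPKM in wild type. Impact and Grb10 did not differ beyond their spread in knockout, where Grb10 was the higher in mouse 6 and Impact in mouse 5, and Impact was the higher in both wild type mice. H19 was at 0.219 ± 0.026 RPKM in knockout and 0.034 ± 0.048 RPKM in wild type, and Plagl1 at 0.048 ± 0.0068 RPKM in knockout and 0.044 ± 0.0022 RPKM in wild type. H19 lay above Plagl1 in both knockout mice and in wild type mouse 3, and below it in wild type mouse 1. Among all genes in the table, Igf2r ranked between percentiles 54.0 and 61.8 on the RPKM scale over the 4 libraries, and Plagl1 between 1.19 and 1.64.

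Other imprinted genes were counted from lists of known imprinted loci. Of 12 further genes in the domains of the 6, 4 had a row. Of these 4, 0 passed the quasi-likelihood test (0.135% of all genes), and 0 had an unadjusted p under 0.05. Begain, in the domain of Meg3, had 20 and 17 counts in knockout mice 5 and 6, against 28 and 13 counts in wild type mice 1 and 3, with overlapping groups (adjusted p = 0.763). Of 58 imprinted genes of other domains, 36 had a row, with a median log2 fold change of 0.060 and 0 called (0.135% of all genes). An unadjusted p under 0.05 was found for 1 of the 36, beside 8.89% of all genes. Both knockout libraries lay above both wild type libraries for 9 of the 36 and below for 7, shares close to those of all genes.

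Kcnq1ot1, a paternally expressed antisense RNA that silences its neighbours in cis, had the smallest p of these 36. It had 312 and 330 counts in knockout mice 5 and 6, against 172 and 165 counts in wild type mice 1 and 3. The mean was 7.07 ± 0.45 CPM in knockout and 4.63 ± 0.10 CPM in wild type (SD, n = 2 each), with a log2 fold change of 0.61 (95% interval 0.21 to 1.01) that did not pass (quasi-likelihood adjusted p = 0.354). Both knockout mice were higher than both wild type mice. Without strand, its reads cannot be told apart from those of Kcnq1, whose intron it lies in. Dcn, a small proteoglycan of connective tissue that is imprinted in placenta, had 98 and 88 counts in knockout mice 5 and 6, against 2 and 33 counts in wild type mice 1 and 3 (log2 fold change 2.08, adjusted p = 0.600). Peg13, a paternally expressed noncoding RNA, was at 37.7 ± 2.27 CPM in knockout and 44.7 ± 5.51 CPM in wild type (SD, n = 2 each; log2 fold change -0.25, adjusted p = 0.575).

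**Figure D4:**
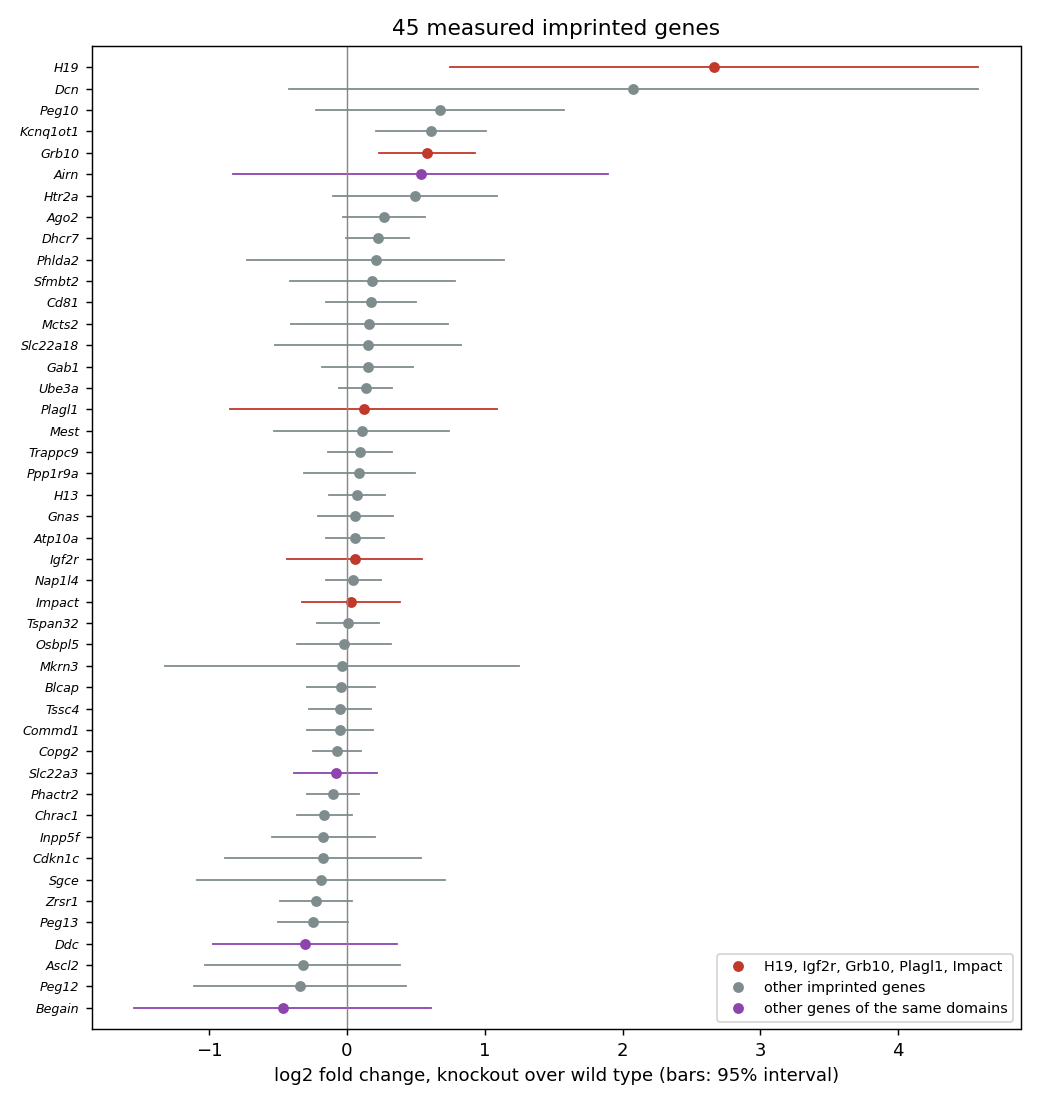
Log2 fold change of knockout over wild type (x axis) with 95% intervals for the 45 measured imprinted genes, ordered by fold change, with H19, Igf2r, Grb10, Plagl1 and Impact in red, other genes of their domains in purple and the rest in gray. H19 has the largest value (2.66), followed by Dcn (2.08), and most of the others lie within 0.5 of 0.

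The IGF and insulin pathway, on which H19, Igf2r and Grb10 act, was read from a list of its genes. Of 30 measured ligands, receptors, binding proteins and effectors, 0 passed the quasi-likelihood test, which called 0.135% of all genes. Their median log2 fold change was -0.0050. An unadjusted p under 0.05 was found for 1 of the 30, beside 8.89% of all genes. That gene was Mtor, the kinase of the growth-sensing mTOR complexes, at 105 and 101 CPM in knockout mice 5 and 6, against 84.5 and 91.6 CPM in wild type mice 1 and 3 (log2 fold change 0.23, adjusted p = 0.473). The ligand gene Igf1 was at 7.88 and 7.32 CPM in knockout mice 5 and 6, against 8.04 and 12.3 CPM in wild type mice 1 and 3 (adjusted p = 0.604). The receptor genes, named outside the rule for their role, had log2 fold changes of 0.054 for Igf1r (95% interval -0.18 to 0.28, adjusted p = 0.874) and 0.089 for Insr (95% interval -0.097 to 0.27, adjusted p = 0.741). Of the 5 relatives and partners of Grb10, 0 were called (0.135% of all genes). An unadjusted p under 0.05 was found for 0 of them (8.89% of all genes). Among them were Gigyf1, which binds Grb10 (log2 fold change -0.17, adjusted p = 0.584), and the ubiquitin ligase gene Nedd4 (log2 fold change 0.12, adjusted p = 0.744).

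On the route that Igf2r serves, 0 of 21 sorting and lysosomal genes passed the quasi-likelihood test, beside 0.135% of all genes. Their median log2 fold change was 0.0043. Of the 21, 3 had an unadjusted p under 0.05, beside 8.89% of all genes. Plaur, the urokinase receptor, whose protein binds the Igf2r product, was at 53.0 and 51.8 CPM in knockout mice 5 and 6, against 72.7 and 86.3 CPM in wild type mice 1 and 3. It had the smallest p of the list (log2 fold change -0.60, adjusted p = 0.119), and it is the 1 gene of the list that the authors' deposited table calls (adjusted p = 0.00054). Plaur is also a gene of mature myeloid cells. The knockout values of 11 of the 12 neutrophil markers were both below the wild type values, an order shown by 20.9% of all genes. Of the 12, 2 were called (0.135% of all genes) and 9 were called in the authors' deposited table (1.13% of all genes). In addition, 0 of the 12 were at 0 in any library. The part of such cells was not tested. The lysosomal hydrolase gene Gaa did not pass either (log2 fold change 0.27, adjusted p = 0.420). M6pr, the other mannose 6-phosphate receptor, named outside the rule, had a log2 fold change of 0.010 (95% interval -0.19 to 0.21, adjusted p = 0.978).

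In the GCN2 pathway on which Impact acts, 0 of 17 measured genes passed the quasi-likelihood test, beside 0.135% of all genes. Their median log2 fold change was -0.043. Of the 17, 4 had an unadjusted p under 0.05, beside 8.89% of all genes. Ppp1r15a, the stress-induced subunit that leads eIF2 dephosphorylation, was at 82.8 and 71.4 CPM in knockout mice 5 and 6, against 105 and 100 CPM in wild type mice 1 and 3 (log2 fold change -0.41, adjusted p = 0.259). Gcn1, the protein partner of Impact, was at 249 and 238 CPM in knockout mice 5 and 6, against 167 and 220 CPM in wild type mice 1 and 3 (log2 fold change 0.33, adjusted p = 0.536). The log2 fold change was 0.20 for Eif2ak4, which encodes GCN2 (adjusted p = 0.583), and -0.20 for Atf4, the transcription factor translated when eIF2 is phosphorylated (adjusted p = 0.575). Factors that keep imprints or insulate imprinted domains had 0 called of 12 measured, beside 0.135% of all genes. Their median log2 fold change was 0.064. Of the 12, 1 had an unadjusted p under 0.05, beside 8.89% of all genes. Among these factors the log2 fold change was 0.22 for the maintenance methyltransferase gene Dnmt1 (adjusted p = 0.640) and 0.21 for Trim28, the co-repressor recruited by ZFP57 (adjusted p = 0.612).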

How the data were processed

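RNA was measured in 4 libraries of lineage-negative mouse bone marrow cells, 2 per group. Per the labels' protocols, cDNA was made with SMART-Seq v4 and tagmented with Nextera XT, which do not mark strand. The submitters' processing notes name Trimmomatic 0.40, STAR 2.5, edgeR 3.28.1 and build mm10. No source used here gives the read counter, annotation release or strand setting. The deposited table holds whole-number counts per gene, with log2 CPM, log2 RPKM, a log2 fold change, a p-value and a false discovery rate by the authors, per the file headers. The table has 2 count columns that match no labelled sample, and these were left out.

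The deposited counts were tested in edgeR 4.0.16 (TMM scaling, robust quasi-likelihood F test, Benjamini-Hochberg adjustment over all 15607 genes, threshold 0.05). The filterByExpr step removed 0 genes. CPM uses TMM-scaled library sizes, RPKM divides it by the deposited length, and intervals of fold changes cover 95%. Standard errors were taken from the F statistic. Exact binomial (Clopper-Pearson) intervals and the limit of 3 counts for a count of 0 cover counting error only. Alternatives were DESeq2 size factors, total counts, the DESeq2 1.42.0 Wald test, the edgeR likelihood ratio test, limma 3.58.1 voom, non-robust fits, 2 other filters and removal of each library. The code was tested on simulated counts. From each list the genes past the threshold and up to 6 others by p could be named, together with all imprinted genes of the same domains, and for H19 the 5 genes nearest in log2 CPM (prior count 2). Genes named outside that rule are said to be so. The members and lists were chosen with earlier results of these data known. Sequences are RefSeq's, on GRCm38.p6.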

Additional observations from a re-analysis of the deposited data

How the results depend on the processing

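No paired analysis was possible because the mouse numbers of the groups (5 and 6, 1 and 3) share no number. The count of genes called was 21, and it was 219 by the DESeq2 Wald test, 177 by the likelihood ratio test, 0 by limma voom, 4 without robust estimation and 10 with a filter of 1 CPM in 2 libraries. With 1 library left out it ranged from 5 to 844. The count of imprinted genes called was 0, and it was 1 by the likelihood ratio test and 0 to 3 with 1 library left out. With 1 library left out, the log2 fold change ranged from 1.68 to 7.52 for H19, from -0.20 to 0.36 for Igf2r, from 0.40 to 0.78 for Grb10, from -0.035 to 0.26 for Plagl1 and from -0.16 to 0.23 for Impact. Igf2r had -0.00063 without knockout mouse 5 and -0.20 without wild type mouse 1. The change of direction for Plagl1 (-0.035) and for Impact (-0.039) also came without knockout mouse 5, and Impact had -0.16 without wild type mouse 3. H19 passed the likelihood ratio test at 2.66. The causes of these changes were not tested. Where a library was left out, the group with 1 mouse left is assumed to vary like the other. DESeq2 gave H19 and Plagl1 no adjusted p, and the 1 CPM filter removed both, so neither has a value there. DESeq2 size factors, total counts and no filter changed no call and no direction among the 5 genes. Counts were lowest for Plagl1, with 12 to 19 a library, and for H19, with 0 to 27, so counting error is widest for these 2 of the 5 genes.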
